A study of Mus musculus with 6 samples.

Results

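Imprinted genes are genes whose copy from 1 parent is kept silent. Here 39 of them were followed in mouse ovarian granulosa cells, chosen by symbol: every row of the table of 54532 genes whose name was on the list. The list held 17 genes catalogued in mouse as expressed from the maternal copy and 22 catalogued as expressed from the paternal copy. For some of them this holds only in certain tissues. The reads do not separate the parental copies, so each value is the sum over both. With cyclophosphamide, 18 members fell, 4 rose and 8 did not pass the test, while the other 9 had too few reads to be tested; of all genes tested, 36.0% fell and 33.3% rose. On the scale used for the tests, Peg10, Mirg and Rian fell most, with log2 fold changes of -2.86, -2.74 and -2.63. That scale understates low genes: the ratio of means was 24.6-fold for Mirg, a gene of few reads, and 7.35-fold for Peg10. Impact, Nap1l5 and Grb10 rose most (1.48, 1.27 and 1.18). Among the changes were neighbours that diverged: Dlk1 did not pass the test while its neighbour Meg3 was 3.33-fold lower.

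The study cultured mouse granulosa cells, the somatic cells that surround and support the oocyte, in DMEM/F12 medium with fetal bovine serum, and sequenced polyadenylated RNA from 6 libraries. The 3 untreated libraries came from cells labelled WT with no drug. The 3 cyclophosphamide libraries came from WT cells that received the drug, an alkylating chemotherapy agent, after a period of adherent culture, with RNA taken at 24 h. The treatment label of the drug group names an intraperitoneal injection, whereas the protocol and design have the drug given to the culture. The labels do not say whether the replicates were separate cultures or animals, or whether the cells were a primary culture or an established line, so the p-values speak only to how far these 6 libraries scatter, part of which can be technical.

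Imprinting is set in the germ line by DNA methylation at control regions, which escapes the erasure that follows fertilisation and then keeps 1 parental copy silent. The genes lie in clusters, and many clusters pair protein-coding genes with a long noncoding RNA expressed from the opposite parental copy. Several encode regulators of growth, metabolism and protein turnover, so their summed dose matters to a cell as well as their parental origin.

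The libraries held 16458385 to 17607586 reads recovered from the FPKM values (fragments per kilobase of gene, scaled to the size of the library), and 14755 genes reached 10 reads in 3 or more libraries with a total of 15 or more. Of these genes, 69.3% changed at an adjusted p under 0.05 by limma, 33.3% upwards and 36.0% downwards, with a median log2 fold change of -0.02. The groups did not overlap for 73.4% of the genes. Granulosa markers were abundant: their summed FPKM ran from 2982 to 3175 in untreated libraries and from 1187 to 1508 with the drug. Of 14 tested granulosa markers 11 fell and 2 rose, the smallest p-values being those of Bmpr1b (a BMP receptor, log2 fold change -3.73) and Inhba (the activin subunit, -2.67), whereas Amh and Cyp19a1, which mark growing and estrogen-making follicles, were under the filter in both groups. Ovarian surface epithelium markers had a summed FPKM of 107 to 119.8 against 50 to 73.5, with 5 of 6 tested markers lower, among them Upk3b (-2.22) and Krt8 (-1.16). Nearly all of that sum was Krt8 and Krt18, at means of 51.1 and 60.7 FPKM untreated and 23.0 and 35.7 with the drug. Smooth muscle and pericyte markers went from 83.5 to 94.7 down to 14.6 to 25.2, with 4 of 7 tested markers lower and 2 higher, Acta2 (-3.32) and Notch3 (1.86) having the smallest p-values, and Rgs5 near 0. Most of the untreated sum was Acta2 alone, which measured 89.0, 86.4 and 78.5 FPKM untreated and 16.5, 4.48 and 7.96 with the drug. Theca and stroma markers went from 29.4 to 35.2 down to 16.1 to 17.6, with 2 of 5 tested markers lower, Col3a1 (-1.75) and Col1a1 (-1.96), 1 higher, and the defining theca enzyme Cyp17a1 near 0. Macrophage and blood markers rose in sum from 6.98 to 7.67 up to 11.5 to 15.3, with Csf1r, Cd68 and Cd14 higher, Lyz2 lower, and the defining markers Ptprc and Adgre1 near 0. Endothelial markers summed to at most 1 untreated and 2.67 with the drug, with Esam higher, Tek and Cdh5 not called, and Pecam1 and Kdr under the filter. Oocyte markers summed to at most 1.37 and 4.71, with Gdf9 and Ooep higher, Ddx4 not called, and Figla at 0. The part of these shifts in the changes of the imprinted genes was not tested. In bulk RNA, fewer cells of a type and less RNA per cell cannot be told apart.

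The sequences below show what the most strongly lowered domain carries. Meg3, Rian and Mirg are maternally expressed noncoding RNAs on chromosome 12, and their genes hold microRNAs, short RNAs that repress messenger RNAs through bases 2 to 8, the seed, printed in capitals. In RefSeq (GRCm38.p6), 14 hairpins with 26 mature microRNAs lie within Mirg, 4 of the hairpins in its exons, 3 hairpins lie within introns of Rian, and 1 hairpin lies in an exon of Meg3. The 26 mature sequences of Mirg have 25 distinct seeds, and the shared one belongs to the first pair printed here. The next 4 come from the exonic hairpins of Mirg, and the last 3 from Rian, Meg3 and Mest. All are read from the host's own strand.
mmu-miR-453: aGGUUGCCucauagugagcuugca
mmu-miR-496a-5p: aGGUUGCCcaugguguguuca
mmu-miR-134-5p: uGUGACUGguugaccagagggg
mmu-miR-485-3p: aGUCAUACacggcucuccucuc
mmu-miR-377-3p: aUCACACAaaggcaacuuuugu
mmu-miR-410-3p: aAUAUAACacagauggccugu
mmu-miR-370-3p: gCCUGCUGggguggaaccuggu
mmu-miR-770-5p: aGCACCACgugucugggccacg
mmu-miR-335-5p: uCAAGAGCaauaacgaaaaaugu

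Libraries made from polyadenylated RNA with long fragments do not measure mature microRNAs, so only the host transcripts are described here. RefSeq promoter windows, from 250 bases before to 50 bases after a gene's start, were found for 32 of the 39 members. They were searched on both strands for TGCCGC, the core of the site that the zinc finger protein ZFP57 binds when methylated, whose reverse complement is GCGGCA. It was present in 27.5% of the 40 member windows with different coordinates and in 11.6% of 32817 windows of all genes. Windows of the same gene can overlap, as do the matching windows of Mest, which hold the same sites. The member windows also had a higher median CpG count, 13 against 7. The 11 members with a match were Commd1, Grb10, Mcts2, Meg3, Mest, Nap1l5, Nnat, Plagl1, Snrpn, Snurf and Zim1, which include genes that rose, fell and did not pass the test. A match describes letters only. The windows of 3 genes are printed, the first 2 because they belong to the diverging neighbours on chromosome 12 and the last because it belongs to a gene that rose. Capitals mark the motif, and the window of Dlk1 holds none. For Dlk1 and Nap1l5 only the 250 bases before the start are given. The whole Nap1l5 window holds 2 matches, and the printed part holds 1 of them.
Dlk1 (chr12:109452573-109452822, plus strand): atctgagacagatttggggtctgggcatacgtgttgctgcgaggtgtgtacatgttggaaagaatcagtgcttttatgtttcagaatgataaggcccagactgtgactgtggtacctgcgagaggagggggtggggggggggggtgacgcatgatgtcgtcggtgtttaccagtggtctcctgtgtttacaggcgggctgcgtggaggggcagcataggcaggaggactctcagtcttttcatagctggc
Meg3 (chr12:109540746-109541045, plus strand): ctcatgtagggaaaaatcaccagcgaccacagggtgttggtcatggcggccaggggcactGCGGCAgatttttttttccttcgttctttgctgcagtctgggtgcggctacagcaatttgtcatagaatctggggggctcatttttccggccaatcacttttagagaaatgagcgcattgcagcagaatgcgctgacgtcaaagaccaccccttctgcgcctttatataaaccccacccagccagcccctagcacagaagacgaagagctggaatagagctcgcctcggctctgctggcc
Nap1l5 (chr6:58907127-58907376, minus strand): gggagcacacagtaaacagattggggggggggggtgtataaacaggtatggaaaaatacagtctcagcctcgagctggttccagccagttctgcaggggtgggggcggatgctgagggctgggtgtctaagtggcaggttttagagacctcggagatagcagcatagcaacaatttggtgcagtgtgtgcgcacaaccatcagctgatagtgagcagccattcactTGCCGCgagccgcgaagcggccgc

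Of the 30 members past the filter, 18 fell (60.0%, against 36.0% of all genes tested) and 4 rose (13.3%, against 33.3%). Their median log2 fold change was -0.64. The groups did not overlap for 22 of the 30 (73.3%), a share like that of all genes (73.4%), and 11 of the 30 (36.7%) fell at least 2-fold, against 16.6% of all genes tested. Among the 13 tested maternally expressed members, 7 fell (Meg3, Rian, Mirg, Trappc9, Asb4, Tssc4 and Cd81), 2 rose (Grb10 and Blcap) and 4 were not called, with a median of -0.58. Among the 17 tested paternally expressed members, 11 fell (Peg10, Peg13, Airn, Nnat, Ndn, Mest, Sgce, Mkrn3, Peg3, Plagl1 and Mcts2), 2 rose (Impact and Nap1l5) and 4 were not called, with a median of -0.70. Both parental classes thus held falling and rising genes, and the difference between the classes was not tested. The classes follow the catalogue and include tissue-limited cases, and which copies these cells expressed was not measured. The members are clustered in the genome and are not independent of each other.

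**Figure D1:**
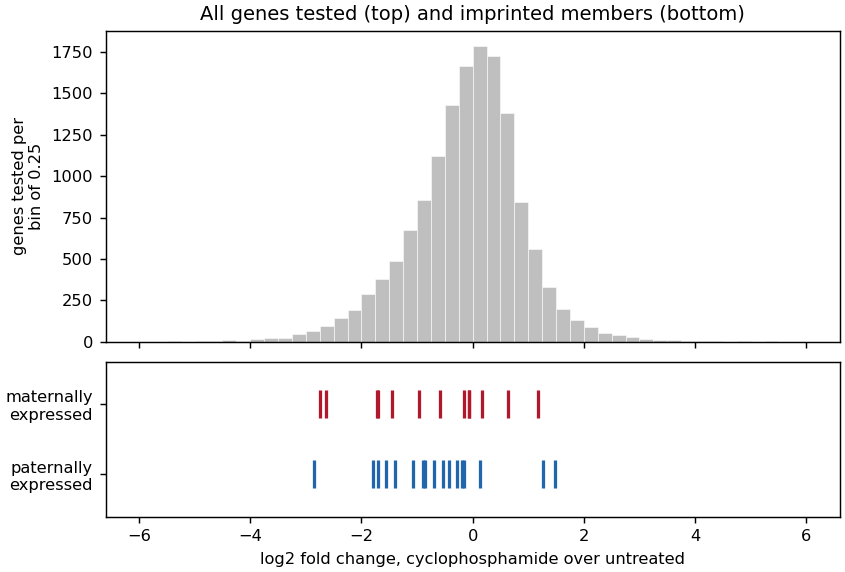
Log2 fold changes, cyclophosphamide over untreated, of all 14755 genes tested (top, genes per bin) and of the 13 maternally and 17 paternally expressed members (bottom, 1 tick per gene). Both classes reach from below -2.7 to above 1.1, with medians of -0.58 and -0.70.

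Long genes fell more often than short ones in these cells: of 1823 tested genes spanning over 100 kb, 62.2% fell, with a median of -0.66. Of the 4 tested members in that range, Trappc9 and Airn fell, Grb10 rose and Snrpn was not called. Of the 26 tested members spanning up to 100 kb, 16 fell (61.5%), where 32.3% of the 12932 tested genes of that range did. Only 4 tested members span over 100 kb, so this comparison says little about gene length. The part of length in the falls of the members was not tested.

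The tested noncoding members mostly fell. Of the 6 tested noncoding members, 5 fell (Meg3, Rian, Mirg, Peg13 and Airn), none rose by limma and Kcnq1ot1 was not called. No tested noncoding member was higher at an unadjusted p under 0.05 or by limma-voom. H19, with 2 reads untreated and 10 with the drug, had too few to be tested. Among all 915 tested long noncoding genes, 24.3% fell and 30.5% rose, with a median of 0.17. The 5 falls do not come from 5 separate places: Meg3, Rian and Mirg are neighbours on the same strand. Peg13 lies in an intron of Trappc9, which also fell. The 24 tested coding members split into 13 that fell, 4 that rose and 7 not called, with a median of -0.48. The difference between the noncoding and coding members was not tested.

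**Figure D2:**
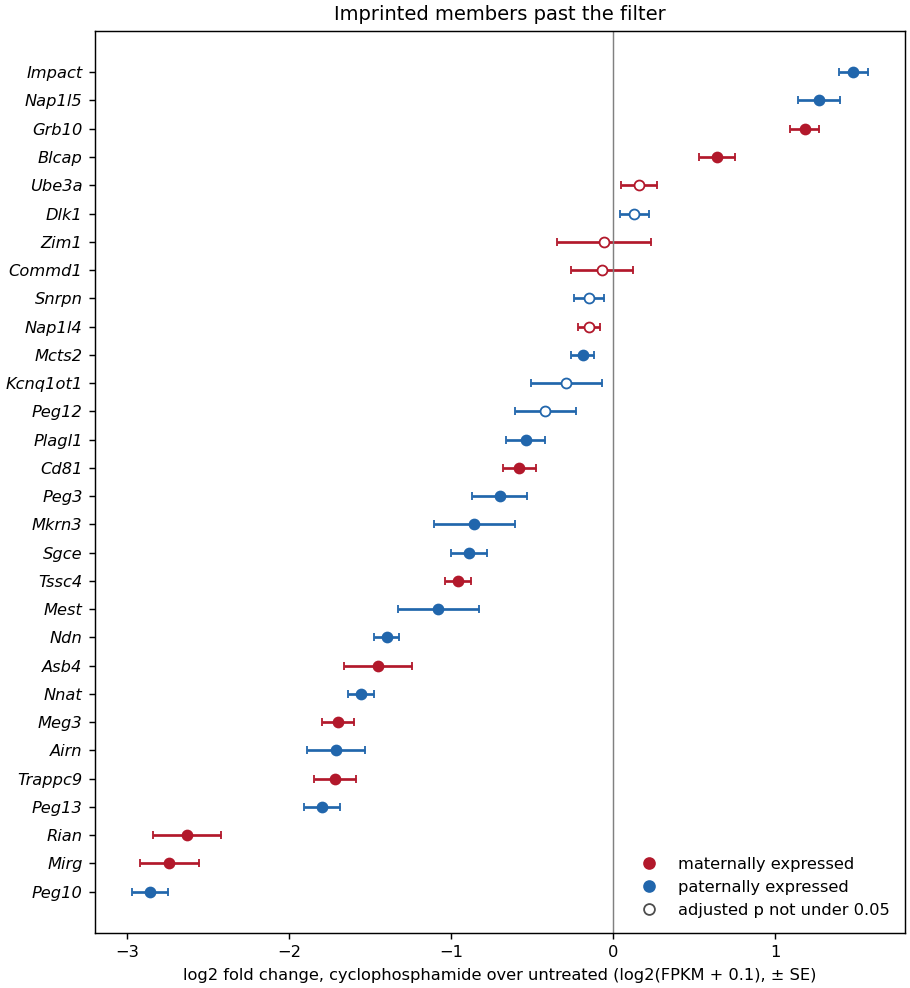
Log2 fold change with its standard error for each of the 30 members past the filter, 3 libraries per group, ordered by value; red marks maternally and blue paternally expressed genes, and open circles mark an adjusted p of 0.05 or more. On this log2(FPKM + 0.1) scale, which understates low genes, Peg10, Mirg and Rian lie lowest at -2.86, -2.74 and -2.63, and Impact lies highest at 1.48.

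The Dlk1-Meg3 domain on chromosome 12 gave the widest split between neighbours in order along 1 strand. DLK1, made from the paternal copy, is a transmembrane relative of the NOTCH ligands that restrains differentiation. Its gene (chr12:109452823-109463336; positions are those of the table, which match GRCm38) measured 8.04, 8.30 and 7.58 FPKM untreated and 9.84, 8.38 and 8.05 with the drug. The groups overlapped, and the log2 fold change of 0.13 ± 0.09 (SE) did not pass the test (adjusted p = 0.25). Leaving out 1 library gave values from 0.04, without drug replicate 1, to 0.19, without drug replicate 3, and none passed.

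Meg3, the noncoding RNA that starts 88178 bases downstream (chr12:109541001-109571726) and is studied as a growth-restraining RNA, measured 11.1, 10.8 and 9.44 FPKM untreated and 3.20, 2.92 and 3.31 with the drug. All 3 drug libraries lay well under all untreated ones, a 3.33-fold fall (log2 fold change -1.70 ± 0.10, adjusted p = 3.9e-06). Its deeper counts, 9579 reads untreated and 2933 with the drug, make it among the best measured of the noncoding members.

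Rian (chr12:109603940-109661716), which hosts a large cluster of small nucleolar RNAs, measured 12.4, 10.4 and 11.2 FPKM untreated and 2.44, 1.26 and 1.69 with the drug. The groups did not overlap, the fall was 6.29-fold (log2 fold change -2.63 ± 0.21, adjusted p = 1.7e-05), and drug replicate 1 kept the highest level of its group. Mirg (chr12:109729764-109749460), the microRNA host furthest along, had 94, 105 and 87 reads untreated and 2, 6 and 4 reads with the drug. Its FPKM fell from 0.789, 0.825 and 0.706 to 0.0167, 0.0459 and 0.0318, a 24.6-fold ratio of means that rests on 12 drug reads. On the log2(FPKM + 0.1) scale its change was -2.74 ± 0.18 (adjusted p = 7.0e-06), which understates a gene this low: limma-voom on the recovered reads gave -4.53 and a pseudocount of 1 gave -0.78.

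Ordered along the chromosome, the ratio of untreated to drug means was 0.910 for Dlk1, 3.33 for Meg3, 6.29 for Rian and 24.6 for Mirg. The log2 ratio of Dlk1 to Meg3 moved from a mean of -0.38 ± 0.08 (SD, n = 3) to 1.45 ± 0.17 (SD, n = 3), and that of Meg3 to Rian from -0.11 ± 0.15 to 0.82 ± 0.40. Neither ratio overlapped between groups, and each gave an exact permutation p of 0.1, the smallest that 3 against 3 libraries allow. Between and inside Meg3, Rian and Mirg, the other 97 rows of the table, mostly microRNA and small nucleolar RNA genes, held 182 reads untreated (75, 67 and 40 per library) and 15 with the drug (8, 4 and 3). The protein-coding Rtl1, a retrotransposon-derived placental gene with an antisense transcript whose reads cannot be told apart from its own here, had 21 reads untreated and 5 with the drug. Within 500 kb of the domain, 3 non-members passed the filter: Begain, a synaptic protein gene on the list of other imprinted genes, fell (log2 fold change -0.79), and Wdr25 (0.11) and Gm3379 (0.43) were not called.

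**Figure D3:**
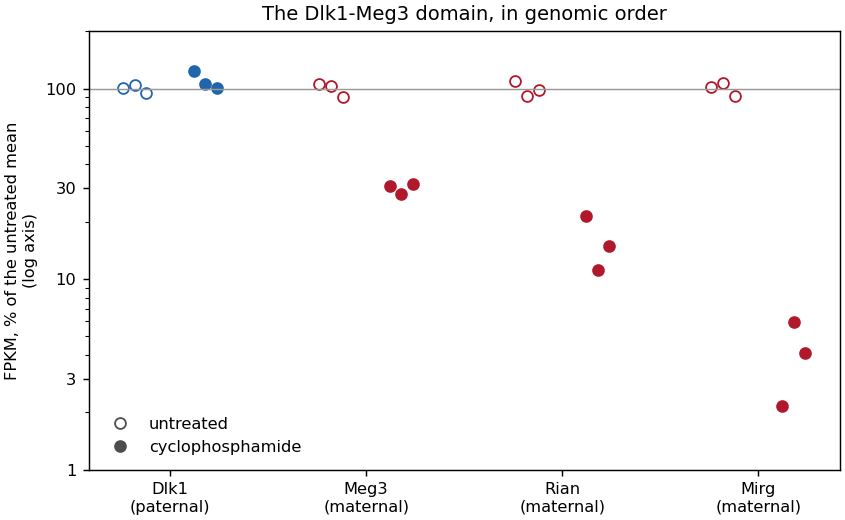
FPKM of Dlk1, Meg3, Rian and Mirg in each library as a percentage of the untreated mean (log axis), open circles untreated and filled circles cyclophosphamide, 3 libraries each. Dlk1 overlaps between groups, whereas the drug libraries of Meg3, Rian and Mirg lie lower in turn, with ratios of means of 3.33, 6.29 and 24.6.

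In the Peg10-Sgce domain on chromosome 6 all 3 tested members fell, by unequal amounts. Peg10, a paternally expressed gene derived from a retrotransposon and required for placental growth, measured 43.2, 37.4 and 46.4 FPKM untreated and 5.07, 6.22 and 5.98 with the drug. The groups were far apart, a 7.35-fold fall from 14291 to 1989 reads (log2 fold change -2.86 ± 0.11, adjusted p = 7.1e-07). Peg10 (chr6:4747306-4760517) starts 99 bases from Sgce, which is read from the other strand.

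Sgce, encoding a sarcoglycan of the cell membrane, measured 2.78, 2.80 and 3.03 FPKM untreated and 1.54, 1.48 and 1.47 with the drug (log2 fold change -0.89 ± 0.11, adjusted p = 2.0e-04). Although the pair share a start region, the log2 ratio of Peg10 to Sgce dropped from 3.83 ± 0.12 to 1.87 ± 0.18 (SD, n = 3 per group, exact permutation p = 0.1). Asb4, a maternally expressed subunit of a ubiquitin ligase, measured 1.81, 1.79 and 2.47 FPKM untreated and 0.865, 0.525 and 0.648 with the drug, without overlap (log2 fold change -1.45 ± 0.21, adjusted p = 4.1e-04). Within 500 kb, 8 non-members were tested, and 6 of them fell, where 36.0% of all genes tested did. The 6 were Casd1 (-0.79), Ppp1r9a (-1.04), Pon2 (-1.02) and Pon3 (-1.31), which are on the list of other imprinted genes, Gm44250 (-1.32) and Dync1i1 (-3.83). Pdk4 rose (1.61), and Col1a2 (-0.13) was not called.

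On chromosome 2, Nnat and Blcap moved in opposite directions although Nnat lies within an intron of Blcap. Nnat, paternally expressed and encoding neuronatin, a small proteolipid of the endoplasmic reticulum, measured 26.3, 29.5 and 27.5 FPKM untreated and 9.80, 8.51 and 9.87 with the drug. It fell 2.96-fold without overlap (log2 fold change -1.56 ± 0.08, adjusted p = 2.7e-06). Blcap, a small membrane protein gene on the opposite strand whose imprinting depends on the isoform and tissue, measured 14.8, 13.3 and 15.3 FPKM untreated and 19, 24.9 and 24.5 with the drug. It rose 1.57-fold (log2 fold change 0.64 ± 0.11, adjusted p = 0.0013), with drug replicate 1 nearest the untreated libraries. The log2 ratio of Nnat to Blcap went from 0.94 ± 0.18 to -1.26 ± 0.30 (SD, n = 3 per group), so the more abundant gene of the pair changed from Nnat to Blcap in all 3 drug libraries (exact permutation p = 0.1).

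Mcts2, also on chromosome 2, is a paternally expressed retrogene inside an intron of H13. It measured 14.4, 14.8 and 13.6 FPKM untreated and 12.5, 13.2 and 11.8 with the drug, a 1.14-fold fall (log2 fold change -0.19 ± 0.07, adjusted p = 0.041). The call did not hold without any 1 of the untreated replicates 1, 2 and 3 or the drug replicates 1 and 3 (adjusted p = 0.1, 0.12, 0.054, 0.06 and 0.15), nor by limma-voom (0.16). Its source gene Mcts1 has nearly the same coding sequence and measured 15.4, 13.3 and 15.9 FPKM untreated and 14.1, 13.3 and 13 with the drug, and how the counting treated reads that match both is not given. The host H13, a signal peptide peptidase, fell from 43.0, 43.7 and 44.5 FPKM to 28.6, 23.3 and 25.4 (log2 fold change -0.77 ± 0.08, adjusted p = 7.5e-05).

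Nap1l5, a paternally expressed retrogene of the nucleosome assembly protein family in an intron of Herc3, rose while its host fell. Nap1l5 measured 1.43, 1.65 and 1.51 FPKM untreated and 3.36, 4.11 and 4.02 with the drug, a 2.51-fold rise on 143 against 366 reads (log2 fold change 1.27 ± 0.13, adjusted p = 5.9e-05). Herc3, a HECT-domain ubiquitin ligase gene, measured 4.34, 4.19 and 4.28 FPKM untreated and 2.99, 2.71 and 2.66 with the drug (log2 fold change -0.60 ± 0.10, adjusted p = 8.6e-04). Neither gene overlapped between groups, and their log2 ratio rose from -1.43 ± 0.12 to 0.44 ± 0.24 (SD, n = 3 per group, exact permutation p = 0.1).

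Impact, paternally expressed and encoding an inhibitor of the GCN1-GCN2 pathway that senses amino acid shortage, had the largest rise of the 30 tested members. It measured 21.6, 18.5 and 18.4 FPKM untreated and 49.3, 57.6 and 57.3 with the drug, a 2.80-fold rise without overlap (log2 fold change 1.48 ± 0.09, adjusted p = 5.2e-06). Its partner Gcn1, listed as Gcn1l1, was not called (log2 fold change -0.05, adjusted p = 0.56). The kinase gene Eif2ak4 rose slightly, from 7.18, 5.73 and 6.22 to 8.86, 8.26 and 8.69 FPKM (log2 fold change 0.43 ± 0.10, adjusted p = 0.0046).

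Grb10, an adaptor that restrains insulin and IGF receptors and is maternally expressed outside the brain, measured 6.83, 6.61 and 6.57 FPKM untreated and 13.4, 16.4 and 16.1 with the drug. It rose 2.30-fold (log2 fold change 1.18 ± 0.09, adjusted p = 1.6e-05). The groups were well apart, with drug replicate 1 the lowest of its group as for Impact, Nap1l5 and Blcap. Of the receptors it binds, Igf1r fell from 8.81, 8.98 and 8.94 to 2.32, 2.29 and 2.10 FPKM (log2 fold change -1.95 ± 0.09, adjusted p = 1.5e-06), and Insr was not called (0.13, adjusted p = 0.13). Ddc, the decarboxylase gene beside Grb10, had 14 and 8 reads in the groups and was not tested.

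**Figure D4:**
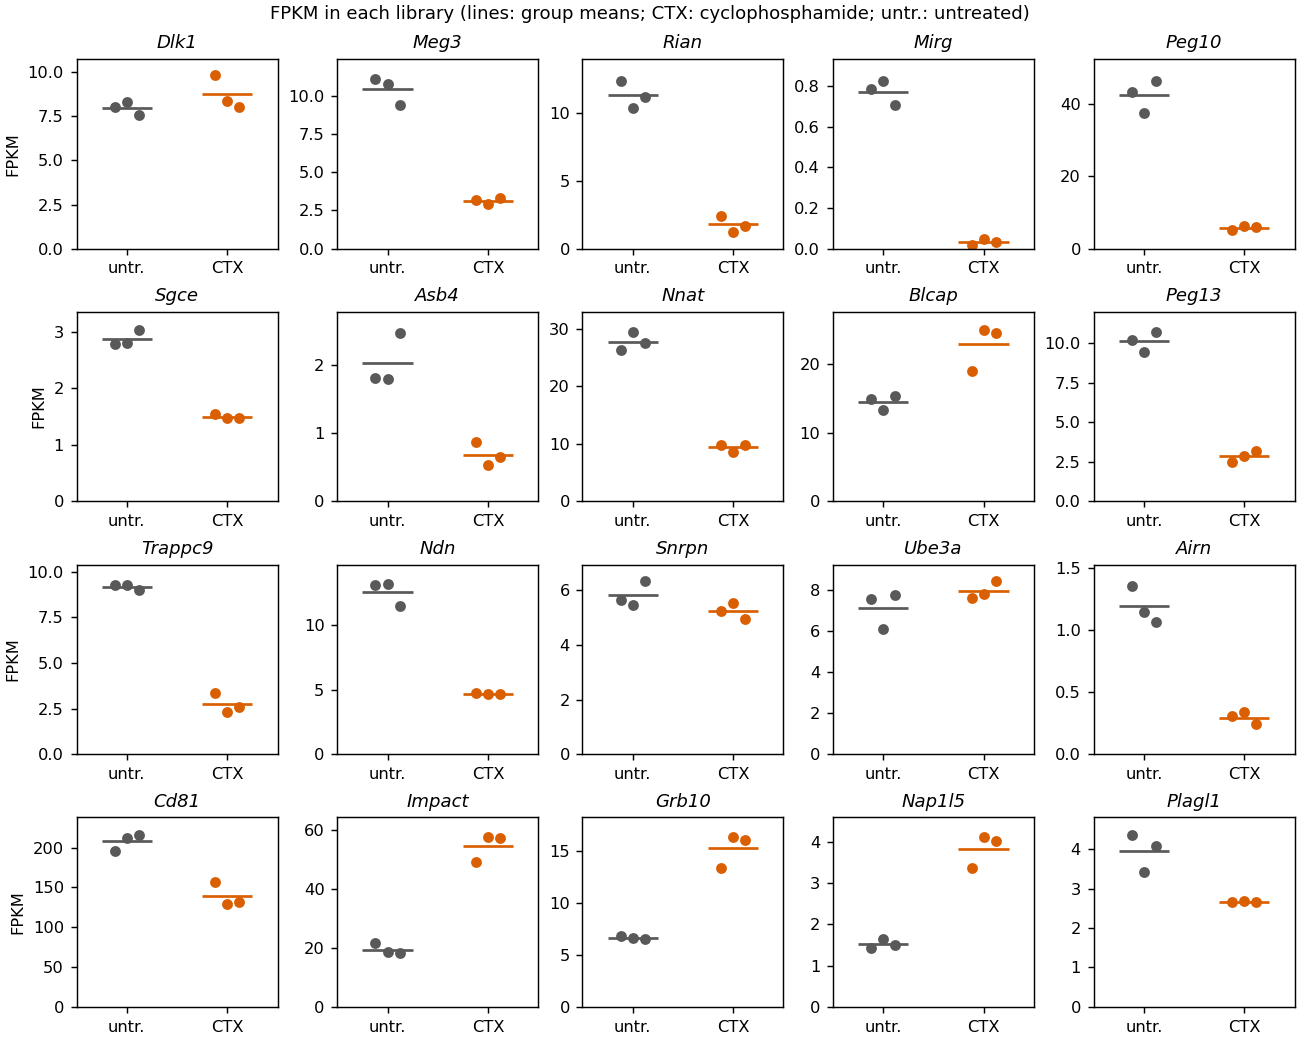
FPKM of 20 members in each library, 3 untreated (grey) and 3 cyclophosphamide (CTX, orange), with lines at the group means and each axis starting at 0. Impact, Grb10, Nap1l5 and Blcap are higher in every drug library, Dlk1, Snrpn and Ube3a overlap, and the other 13 are lower in every drug library.

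Peg13 and Trappc9 on chromosome 15 fell together. Peg13, a paternally expressed noncoding RNA inside an intron of Trappc9 and on the same strand, measured 10.2, 9.48 and 10.7 FPKM untreated and 2.52, 2.86 and 3.20 with the drug (log2 fold change -1.80 ± 0.11, adjusted p = 4.8e-06). Trappc9, encoding a subunit of a vesicle-tethering complex, measured 9.27, 9.28 and 9.03 FPKM untreated and 3.36, 2.33 and 2.57 with the drug (log2 fold change -1.72 ± 0.13, adjusted p = 1.6e-05). Both were without overlap, and their log2 ratio, 0.14 ± 0.11 untreated and 0.06 ± 0.40 with the drug (SD, n = 3 per group), overlapped between groups (exact permutation p = 1). Because they share strand and span, unspliced reads of Trappc9 over Peg13 and reads of Peg13 itself cannot be told apart. Of 4 tested non-members within 500 kb, Ago2 and Ptk2 rose by 1.06 and 0.66, Chrac1 fell by 0.24 and Dennd3 was not called.

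Airn, the paternally expressed antisense RNA that silences Igf2r on its own chromosome during development, measured 1.36, 1.15 and 1.07 FPKM untreated and 0.304, 0.341 and 0.241 with the drug. It fell 4.03-fold on 217 against 55 reads, without overlap (log2 fold change -1.71 ± 0.18, adjusted p = 6.8e-05; -0.76 with a pseudocount of 1). Igf2r, the maternally expressed receptor that clears IGF2, fell less, from 26.7, 26.5 and 27.5 to 17.8, 20.2 and 18 FPKM (log2 fold change -0.52 ± 0.07, adjusted p = 2.3e-04). The log2 ratio of Airn to Igf2r went from -4.39 ± 0.18 to -5.58 ± 0.14 (SD, n = 3 per group, exact permutation p = 0.1; the change was -0.25 with a pseudocount of 1).

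In the Kcnq1ot1 domain on chromosome 7, 2 of 4 tested members fell. Cd81, a tetraspanin of the cell surface and the most abundant member, measured 196, 212 and 216 FPKM untreated and 157, 129.6 and 132 with the drug, without overlap (log2 fold change -0.58 ± 0.10, adjusted p = 8.6e-04). Tssc4, a splicing cofactor gene, measured 17.5, 19.7 and 19.5 FPKM untreated and 10.2, 9.86 and 9 with the drug (log2 fold change -0.96 ± 0.08, adjusted p = 2.1e-05). Both are classed as maternally expressed on the strength of extraembryonic tissues. Of the exonic bases of Tssc4, 11.9% overlap Trpm5 on the opposite strand, and Trpm5 fell from 219 to 21 reads (log2 fold change -2.25), so that without a stated strand setting the 2 genes' reads there cannot be told apart.

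Kcnq1ot1, the paternally expressed RNA that spans the centre of the domain, measured 0.223, 0.14 and 0.155 FPKM untreated and 0.0887, 0.119 and 0.160 with the drug, overlapping groups that were not called (log2 fold change -0.29 ± 0.22, adjusted p = 0.25). It had 812 reads untreated and 592 with the drug, and limma-voom on the recovered reads gave -0.50 ± 0.21 (adjusted p = 0.052). A pseudocount of 1 gave -0.06. Nap1l4, a histone chaperone gene, measured 40.5, 44.6 and 44.6 FPKM untreated and 41.7, 37.8 and 37.7 with the drug, and was not called (log2 fold change -0.15 ± 0.07, adjusted p = 0.094). It passed without drug replicate 1 (adjusted p = 0.029) and under 2 other scalings, to the summed value (0.021) and to the upper quartile of FPKM (0.0047). Phlda2, the placental growth repressor, had 1, 1 and 0 reads untreated and 1, 10 and 3 with the drug. Slc22a18, a transporter gene, had 7 and 8 reads in the groups, and Ascl2, a trophoblast transcription factor gene, had 4 and 8, so none of the 3 was tested. Beyond the members, 12 genes within 500 kb were tested, of which 4 rose, 3 fell and 5 were not called. Over all genes tested, 33.3% rose and 36.0% fell.

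The Snrpn-Ube3a domain on chromosome 7 did not move as 1 block. Ndn, the paternally expressed growth suppressor necdin, measured 13.1, 13.2 and 11.5 FPKM untreated and 4.75, 4.65 and 4.69 with the drug. It fell 2.68-fold, with drug libraries that differed little from each other (log2 fold change -1.40 ± 0.08, adjusted p = 4.0e-06). Mkrn3, a ubiquitin ligase that restrains puberty, had 47, 38 and 39 reads untreated and 14, 21 and 31 with the drug. Its FPKM of 1.13, 0.855 and 0.906 against 0.334, 0.460 and 0.705 did not overlap (log2 fold change -0.86 ± 0.25, adjusted p = 0.014), but leaving out 1 library raised the adjusted p to as much as 0.05. With no filter on low values it was 0.063.

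Peg12, an intronless relative of the FRAT regulators of WNT signalling, measured 0.973, 1.22 and 1.28 FPKM untreated and 0.667, 0.845 and 1.03 with the drug, overlapping and not called (log2 fold change -0.42 ± 0.19, adjusted p = 0.086). Without drug replicate 3 its adjusted p was 0.047. Snrpn, encoding a core protein of splicing complexes, measured 5.64, 5.47 and 6.36 FPKM untreated and 5.23, 5.53 and 4.96 with the drug, and was not called (log2 fold change -0.15 ± 0.09, adjusted p = 0.20). Its exons are shared over 27.3% with Snurf and Gm38393 on the same strand. Snurf, whose exonic bases are all shared with them, is listed at 0 in every library. Gm38393, the longer gene model over both, measured 1.09, 0.868 and 0.828 FPKM untreated and 0.699, 1.01 and 0.943 with the drug (log2 fold change -0.07, not called).

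Ube3a, the ubiquitin ligase gene whose imprinting is confined to neurons, measured 7.54, 6.11 and 7.74 FPKM untreated and 7.61, 7.79 and 8.42 with the drug, overlapping and not called (log2 fold change 0.16 ± 0.11, adjusted p = 0.22). Its exonic bases overlap antisense genes over 27.3%, among them Snhg14, the host of the paternal antisense transcript. Snhg14 measured 0.342, 0.274 and 0.351 FPKM untreated and 0.407, 0.404 and 0.473 with the drug, and was not called (adjusted p = 0.13). Magel2 is listed at 0 in every library and was not tested.

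The Peg3 and Mest domains held low-level members. Peg3, a paternally expressed zinc finger gene linked to maternal care and cell death, measured 1.09, 1.06 and 1.03 FPKM untreated and 0.615, 0.515 and 0.734 with the drug, without overlap (log2 fold change -0.70 ± 0.17, adjusted p = 0.0058; -0.35 with a pseudocount of 1). Zim1, its maternally expressed zinc finger neighbour, had 15, 2 and 10 reads untreated and 3, 9 and 12 with the drug, and was not called (log2 fold change -0.06 ± 0.29, adjusted p = 0.85). Usp29, which shares the Peg3 control region, had 1 and 2 reads in the groups. Mest, a paternally expressed hydrolase gene that hosts miR-335, measured 0.993, 0.683 and 0.810 FPKM untreated and 0.416, 0.212 and 0.411 with the drug on 165 and 70 reads, without overlap (log2 fold change -1.08 ± 0.25, adjusted p = 0.0048; -0.44 with a pseudocount of 1). Of its exonic bases 23.1% overlap Copg2 on the opposite strand, and Copg2, a coatomer subunit gene, fell from 14.7, 13.3 and 13.9 FPKM to 8.12, 9.42 and 8.20. Reads of the pair cannot be told apart there without a stated strand setting, and their log2 ratio overlapped between groups (change -0.38, exact permutation p = 0.400, and 0.20 with a pseudocount of 1).

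Plagl1, a paternally expressed zinc finger factor that restrains growth and sits above other imprinted genes in a shared network, measured 4.36, 3.41 and 4.09 FPKM untreated and 2.66, 2.68 and 2.66 with the drug. It fell 1.48-fold without overlap (log2 fold change -0.54 ± 0.12, adjusted p = 0.0039). Commd1, a copper-handling gene with maternal bias in the brain, measured 1.10, 1.02 and 0.747 FPKM untreated and 1.04, 0.836 and 0.829 with the drug, and was not called (log2 fold change -0.07 ± 0.19, adjusted p = 0.76). Zrsr1, the paternally expressed splicing-factor retrogene inside Commd1, rose from 4.52, 4.34 and 3.99 FPKM to 8.13, 9.05 and 10.2 (log2 fold change 1.07 ± 0.11, adjusted p = 5.3e-05), and their log2 ratio rose by 1.14 (exact permutation p = 0.1). Of the exonic bases of Commd1, 6.94% overlap genes on the opposite strand, Zrsr1 among them. Reads of the pair cannot be told apart there without a stated strand setting. Of the remaining members, H19, the maternally expressed growth-restraining RNA, had 0, 2 and 0 reads untreated and 2, 3 and 5 with the drug, and Rasgrf1, a guanine exchange factor gene, had 0 and 1 in the groups.

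**Figure D5:**
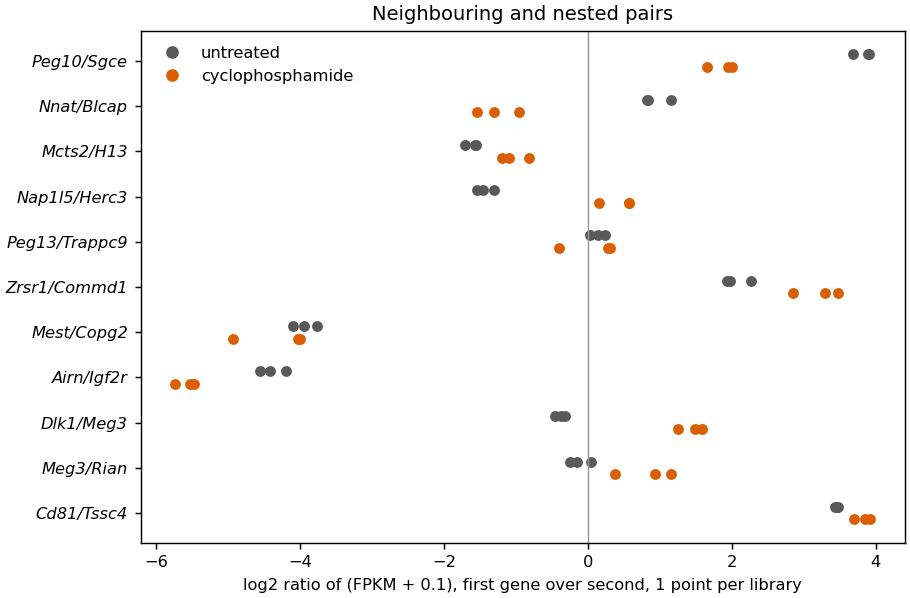
Log2 ratio of FPKM + 0.1, first gene over second, in each library for 11 pairs of neighbouring or nested genes, untreated in grey and cyclophosphamide in orange. The groups do not overlap for 9 pairs, whereas Peg13/Trappc9 and Mest/Copg2 overlap. The share among other gene pairs was not computed.

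Of 17 neighbouring or nested pairs listed, 11 had both genes past the filter, and 9 of the 11 had ratios that did not overlap between groups. Single genes did not overlap in 73.4% of all those tested. The share among other gene pairs was not computed, so the count cannot be read as particular to these pairs. Each of the 9 reached the exact permutation p of 0.1, which is 0.122 after Benjamini-Hochberg adjustment over the 11 pairs, so that no pair could pass 0.05 in this design. The pairs whose ratio changed most were Nnat/Blcap (-2.20), Peg10/Sgce (-1.96), Nap1l5/Herc3 (1.87) and Dlk1/Meg3 (1.83), and Cd81/Tssc4 changed least among the 9 (0.37).

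A second list of 47 other imprinted genes and cluster neighbours, of which 30 were tested, held more falls than rises. Of the 30, 15 fell, 3 rose and 12 were not called, with a median of -0.53, beside 36.0% lower over all genes. This list is not independent of the members. All of its genes that fell, except Smoc1, Qpct and Sfmbt2, lie within 500 kb of a member domain, and several are given above. The smallest p-values were those of Atp10a, a lipid flippase gene, which fell from 14.6, 15.2 and 15.3 FPKM to 4.70, 4.17 and 4.47 (log2 fold change -1.74, adjusted p = 1.3e-06), and Smoc1, a secreted calcium-binding matrix protein gene, which fell from 13, 12.7 and 11.7 to 2.22, 1.34 and 2.48 (log2 fold change -2.61, adjusted p = 1.5e-05). Zrsr1, Jade1 (a histone acetylation scaffold) and Zdbf2 (a zinc finger gene) rose. Atp10a and Smoc1 span 173 and 159.6 kb, and of all tested genes spanning over 100 kb 62.2% fell. The part of gene length in the falls of this list was not tested.

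Of 32 factors that set or keep imprints 28 were tested: 13 rose, 7 fell and 8 were not called, with a median of 0.19. The share called, 71.4%, was near the 69.3% of all genes. Uhrf1, which brings the maintenance methyltransferase to newly copied DNA, fell from 11.7, 13.8 and 13.5 FPKM to 2.85, 2.50 and 2.01 (log2 fold change -2.37, adjusted p = 3.9e-06), and Suz12, a Polycomb subunit, rose from 15.8, 14.0 and 14.9 to 30, 32 and 32.3 (log2 fold change 1.07, adjusted p = 5.7e-06). Dnmt1, Zfp57 and Dnmt3l were picked after their values were seen, for their direct roles. Dnmt1, the maintenance methyltransferase, fell from 17.3, 19 and 17.7 FPKM to 8.99, 8.68 and 9.15 (log2 fold change -1). Zfp57, whose motif is given above, fell from 3.31, 4.01 and 3.64 to 1.38, 1.53 and 1.56 (-1.24). Dnmt3l, the germ-line cofactor of imprint setting, rose from 0.184, 0.0767 and 0.257 to 3.41, 3.70 and 3.76 (3.83). Also named after their values were seen, Zfp445 (0.63), Trim28 (0.20) and Dnmt3b (0.95) rose, and Dnmt3a (-0.46) fell. No methylation was measured in these libraries.

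All 26 partner genes of DLK1, GRB10, PLAGL1 and the ubiquitin ligases were tested, with 10 higher, 10 lower and 6 not called, and a median of 0.04. The shares higher and lower, 38.5% each, were near the 33.3% and 36.0% of all genes. By the smallest p-values the leading partners were Igf1r, given above, and Siah1a, a ubiquitin ligase that rose from 11.7, 10.3 and 11.5 FPKM to 25.4, 23.0 and 24.6 (log2 fold change 1.11, adjusted p = 7.7e-06). The NOTCH receptors, like Insr and Eif2ak4 above, are named after their values were seen, because DLK1 is a relative of their ligands: Notch1 and Notch3 rose (1.55 and 1.86), whereas Notch2 and Notch4 fell (-0.74 and -0.58).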

How the data were processed

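RNA-seq of 3 untreated and 3 cyclophosphamide libraries was taken as FPKM values that the authors deposited, 1 column per library. The submitters' processing notes name CASAVA, HISAT2 2.0.5 and the mouse build GRCm39. The counter, strand setting and annotation release were not given in the sources used here. Of the shared gene IDs 98.3% have the coordinates of GENCODE M21 (GRCm38), which was used for exons. Multiplying FPKM by gene length gave whole reads for 100.0% of values (within 0.01 of a read), so depth per gene is known. Genes that reached 10 reads, scaled to the median library, in 3 or more libraries and 15 or more in total were tested with limma 3.58.1 (R 4.3.3, trend, two-sided) on log2(FPKM + 0.1), adjusted by Benjamini-Hochberg over 14755 genes, threshold 0.05. Fold changes on that scale understate low genes. Pair ratios were tested with exact two-sided permutation tests (SciPy 1.17.1). The method was tested on simulated data. The members, lists and pairs were chosen with earlier results of these data known. All 39 members are accounted for, and of each other list the 2 called genes with the smallest p, the pair partners, and all tested genes of lists with under 5 are named. The alternatives were pseudocounts of 0.5 and 1, filters, scalings, limma-voom, a replicate block and leaving out each library.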

Additional observations from a re-analysis of the deposited data

How the results depend on the processing

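Of the 22 called members, 20 were called under all 16 alternatives; Mcts2 and Mkrn3 were the exceptions. Members called lower numbered from 16 (no filter on low values) to 21 (upper-quartile scaling of FPKM, which shifted the median of all genes by -0.11 and under which Nap1l4, Peg12 and Snrpn also passed); 4 rose throughout. Scaling to the summed value gave 19, with Nap1l4 passing. Upper-quartile scaling of the recovered reads, added after seeing the data, gave 17. Leaving out 1 library gave 17 to 18. Uncalled values near 0 changed sign: Zim1 became 0.02 with limma-voom and ranged from -0.32 to 0.14 over the libraries left out (0.14 without untreated replicate 1 and 0.10 without cyclophosphamide replicate 1), and Commd1 became 0.02 with upper-quartile scaling of recovered reads and ranged from -0.22 to 0.03 (0.03 without untreated replicate 1). The cause was not tested. A pseudocount of 1 shrank low genes by construction, Mirg to -0.78, Airn to -0.76, Asb4 to -0.84, Mest to -0.44, Mkrn3 to -0.39 and Peg3 to -0.35, and moved the ratio changes of Nap1l5/Herc3 to 1.41, Mest/Copg2 to 0.20, Airn/Igf2r to -0.25 and Dlk1/Meg3 to 1.58. Same-numbered libraries did not deviate together (correlations -0.077, 0.007 and -0.023). This gave no sign that the numbers pair the samples, but so few libraries cannot settle it. A replicate block gave 4761 genes higher and 5154 lower, and 4 members higher and 18 lower. Depth limits Mirg, Zim1 and the 9 untested members.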
